A study of Homo sapiens and Mus musculus with 20 samples.

Results

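Regions of open chromatin at 7 genes of SW480 cells were examined, namely COL26A1, AHNAK2, DHRS2, ZNF703, TMPRSS9, NUAK2 and PRKCD. The genes were selected on their rank changes after sodium propionate (NaPr) in these same libraries, so their NaPr values are a description and carry no test. A region counted as a member when it overlapped the gene body or the 50 kb on either side of it, which gave 305 of the 252173 regions of the 12 SW480 libraries, at 7 of 62700 annotated genes. Of these 305 regions, 129 lay in a gene body, 86 upstream and 90 downstream. The nearest start of a protein-coding transcript belonged to the member gene itself for 183 of them, and to a neighbouring gene for the rest.

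The study asked how short-chain fatty acids alter chromatin in colorectal cancer cells. SW480 is an established human colorectal adenocarcinoma line, and ATAC-seq marks open chromatin through the Tn5 transposase, which inserts adapters where DNA is accessible. Cells received 10 mM NaPr for 12 to 16 h (3 libraries) or no treatment (3 libraries), and, in a separate experiment that the labels mark with another date, 1 mM sodium butyrate (NaBu) for 12 to 16 h (3 libraries) or no treatment (3 libraries), with 50000 cells per reaction. Each compound was set against the untreated libraries of its own experiment. The doses and the dates in the labels differ, so values for NaPr and NaBu are given side by side and their difference was not tested. Nothing in the labels says that replicates came from separate cultures, so p-values measure the spread between these libraries, which may be technical.

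Propionate and butyrate are released by gut bacteria that ferment dietary fibre. Inside cells both inhibit histone deacetylases and feed acyl groups into histone acylation, and both processes are known to alter access to promoters and enhancers. Butyrate is the main fuel of the colonic epithelium, and it slows growth and promotes differentiation of colorectal cancer cells in culture.

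The value of a region in a library was the percentile rank of its strongest peak, by −log10 p, among the regions with a peak in that library, and 0 where no peak was listed. A difference of ranks is given in percentile points, and it is not a fold change. In bulk cells, fewer cells with an open region and a less open region in each cell cannot be told apart. A rank of 0 says that no peak passed the limit of that list, whose weakest peak had a −log10 p between 3.37 and 9.38. Positions are on GRCh38, and distances run from the start of the gene to the strongest summit of the region, with negative values upstream. The lists held 108442 to 144398 peak intervals, and the recovered background pileup, a measure of depth, ranged from 0.936 to 3.03 tags. Of 9 genes that mark colon epithelium, 7 (EPCAM, CDH1, KRT8, KRT18, KRT19, VIL1 and CDX2) had a peak at their start in all 12 libraries, KRT20 had one in 4 libraries and CDX1 in 0. Among markers of other cells, PTPRC, CD3E and CDH5 had a peak in 0 libraries, PECAM1 in 2, PDGFRB in 7 and COL1A2 in 12.

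At COL26A1, TMPRSS9 and DHRS2 lay a region each that had a peak in all NaPr libraries and in no untreated library. They were picked on these peaks, so a fall with either compound could not be seen in them. Stretches of these regions share sequence, a feature that the choice of genes did not use, and which was looked for after the values had been seen. Sharing was counted as runs of 20 bases that occur, on either strand, in both regions of a pair. The COL26A1 and TMPRSS9 regions had 28 different runs of 20 bases in common, the COL26A1 and DHRS2 regions 21, and the DHRS2 and TMPRSS9 regions 33. Bases covered by such runs made up 254 of the 1269 bases of the COL26A1 region, 257 of 716 at TMPRSS9 and 241 of 2628 at DHRS2. Within 100 bases of the strongest summit they numbered 29 at COL26A1, 145 at TMPRSS9 and 0 at DHRS2, so the shared stretch and the summit lay apart in the DHRS2 region. No repeat annotation was used here, and whether reads of near-identical copies were placed correctly was not tested.

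Other regions with the same runs of bases were then counted among those tested in either experiment, leaving out all member regions, as a description with no test. At least 20 runs of the COL26A1 region were found in 184 other regions and at least 20 runs of the TMPRSS9 region in 172, and 72 regions were in both sets, so their counts are not independent. Of the 166 relatives of the COL26A1 region tested in the NaPr experiment, 30 (18.1%) were called higher and 1 lower, with a median change of 18.9 percentile points, where over all regions 3.1% were called higher and the median was 0.53. In the NaBu experiment 37 of 89 (41.6%) were called higher and 2 lower, with a median of 7.92 points, against 24.0% and 2.92 points over all regions. For the TMPRSS9 region the counts were 31 of 161 higher (19.3%) and 1 lower with NaPr, and 30 of 66 higher (45.5%) and 1 lower with NaBu. The longer DHRS2 region shared sequence with 1383 others, of which 97 of 1172 (8.28%) were called higher and 20 lower with NaPr, and 396 of 1150 (34.4%) higher and 109 lower with NaBu. Among member regions its relatives included the TMPRSS9 region at 35.8 kb, which fell with NaPr. A relative without an untreated peak passed the filter through treated libraries alone, so it could only rise. How many relatives did so was not counted, and the part of the filter in these shares and medians was not tested.

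A high share of NaBu gains was also found among relatives of other member regions. The NUAK2 region with the largest NaPr gain had 382 relatives, of which 153 of 360 (42.5%) were called higher and 31 lower with NaBu, and 29 of 322 (9.01%) higher and 5 lower with NaPr. A COL26A1 region that lost its peak with NaPr, at 59.7 kb, had 86, of which 24 of 76 (31.6%) were higher and 12 lower with NaBu, and 3 of 69 (4.35%) higher and 2 lower with NaPr. The lost regions of NUAK2, PRKCD and ZNF703 shared at least 20 runs with 0 other tested regions.

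**Figure D1:**
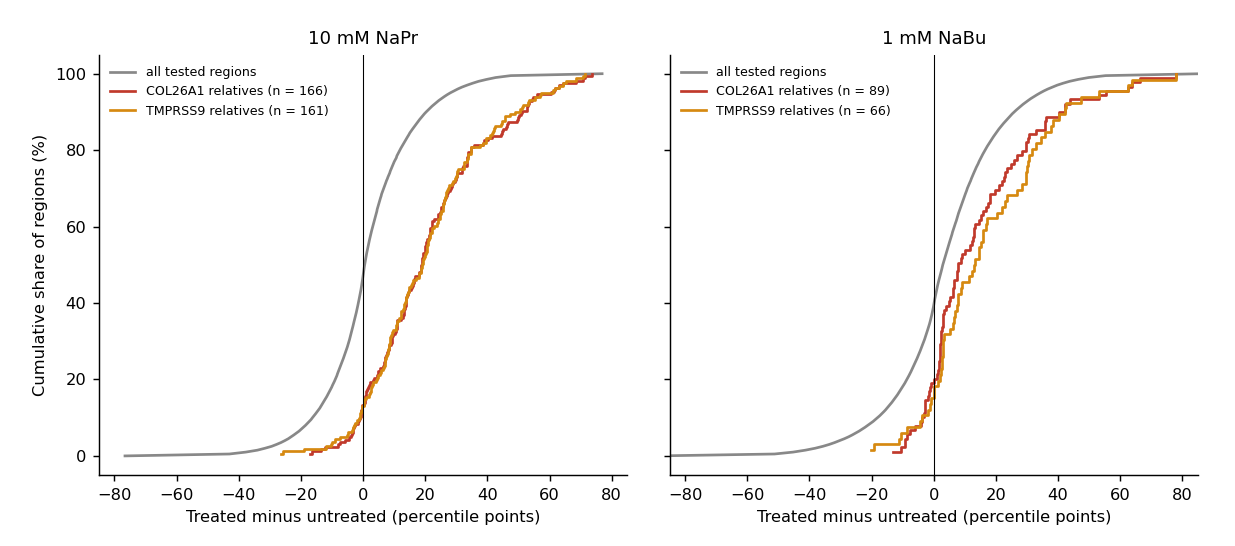
Cumulative share of regions (vertical axis, %) against the change of rank (horizontal axis, percentile points), with 10 mM NaPr on the left and 1 mM NaBu on the right. Grey is all tested regions, red the regions that share at least 20 runs of 20 bases with the COL26A1 region (166 with NaPr and 89 with NaBu) and orange those that share as many with the TMPRSS9 region (161 and 66), without member regions. Both coloured curves lie to the right of the grey curve over most of each panel. Regions without an untreated peak passed the filter through treated libraries alone and could only rise.

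Taking the 7 genes together, 180 of the 305 regions had a peak in at least 2 of the 6 libraries of the NaPr experiment and were tested. Of these, 8 were called higher and 13 lower, where 3.1% and 2.22% of all 124067 tested regions were called higher and lower, and nothing is read from the members' counts because NaPr chose the genes. The median change of the 180 regions was −1.59 percentile points. Leaving out any 1 library left 0 to 5 higher and 0 to 6 lower calls (0 and 0 without treated replicate 3), and ranking by fold enrichment left 0 and 0. In the fits that left 0 and 0, no region of the whole genome was called, of 117931 and 124067 tested. By fold enrichment, 40 of the 180 member regions and 20921 of all 124067 had an unadjusted p below 0.05 in limma. With NaBu, whose libraries took no part in that choice, 35 of 151 tested regions were called higher (23.2%) and 29 lower (19.2%) at an adjusted p below 0.05 in limma. Over all 123730 regions 24.0% were higher and 13.1% lower, so the members' share of higher calls was near the background. Their median NaBu change was 0.81 percentile points. In 11 of the 151 regions all NaBu libraries and no untreated one had a peak, and in 12 the reverse held. The limma p-values of these regions describe values that the filter used. The direction of NaBu calls depended on the setting. On ranks 64.7% of all calls were higher, and 54.4% when regions without a peak were tied over the whole set. On recovered tags 45.5% were higher. For the members these shares were 54.7%, 49.2% and 42.9%. Recovered tags were fitted only where all 6 libraries had a peak (72559 of the 123730 regions, 88 of the 151 members). Scale and set of regions therefore changed together. The NaBu-treated lists also held more intervals (126008 to 128955) than their untreated lists (108442 to 120971), and the part of this in the higher calls was not tested.

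Member regions called with NaPr were often called in the same direction with NaBu, at shares near those of the whole genome. Of the 8 member regions called higher with NaPr, 6 were called higher and 0 lower with NaBu, and 1 of the other 2 was not tested. Of the 13 called lower, 7 were called lower and 0 higher. Over the whole genome 68.2% of regions called higher with NaPr were higher with NaBu, and 48.7% of those called lower were lower.

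**Figure D2:**
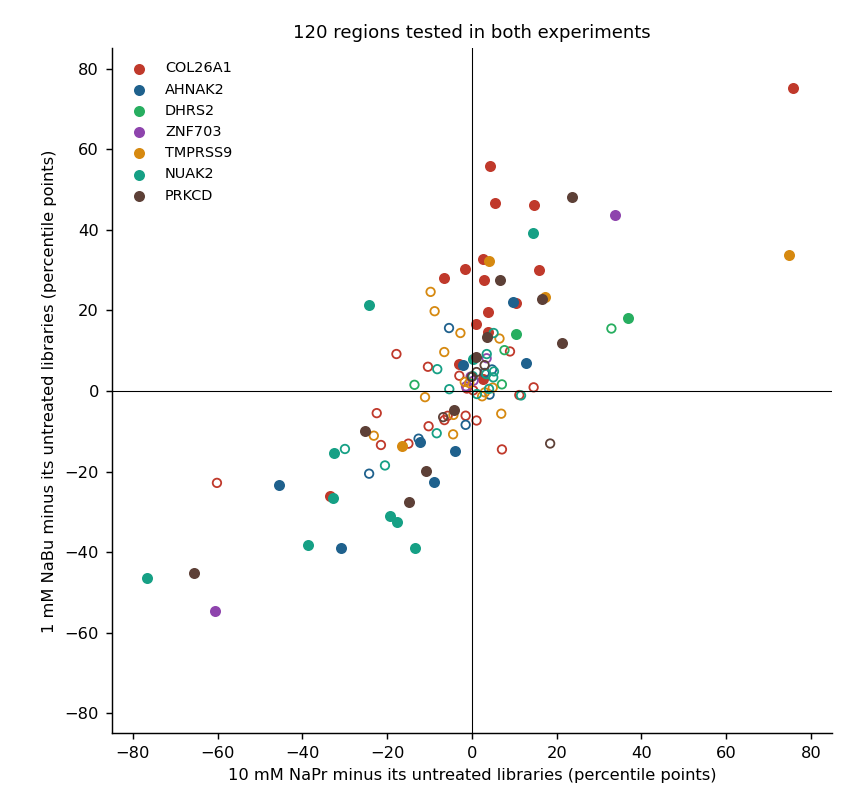
Change with 1 mM NaBu (vertical axis) against change with 10 mM NaPr (horizontal axis), in percentile points, for the 120 member regions tested in both experiments, coloured by gene. Filled points were called with NaBu. The COL26A1 region at −13.3 kb stands at the upper right, with changes of 75.8 and 75.3, and the NUAK2 intron region at the lower left, with −76.6 and −46.4.

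COL26A1 encodes a collagen of the extracellular matrix with an EMI domain. Its window on chromosome 7 (gene at chr7:101362875-101559024, plus strand) held 103 regions, of which 59 were tested with NaPr (2 higher, 2 lower) and 37 with NaBu (15 higher, 1 lower). Here and at the genes below, the shares over all regions are 24.0% higher and 13.1% lower with NaBu, and 3.1% and 2.22% with NaPr. Ranking by fold enrichment turned the NaBu balance to 4 higher and 5 lower, and the 50000 strongest intervals of each library gave 8 and 2. The intergenic region chr7:101349021-101350289, at −13.3 kb, had no peak in the 3 untreated libraries of either experiment. NaPr gave it ranks of 88.6, 70.3 and 68.5 in replicates 1 to 3, and NaBu 78.4, 68.2 and 79.3. The summit held 80, 57 and 90 tags with NaPr and 125, 104 and 138 with NaBu. All treated libraries therefore stood apart from all untreated ones, and the NaBu change was 75.3 percentile points (SE 5.70, limma adjusted p = 0.000249). The call held in all 17 alternatives that gave a value, with limma adjusted p-values from 0.000152 to 0.00515. Recovered tags, which need a peak in all 6 libraries, gave none. The region was tested with NaBu through peaks of its treated libraries alone, since its untreated ranks were 0. Its limma p-values therefore describe values that the filter used. It is the COL26A1 region that shares sequence with those of TMPRSS9 and DHRS2, and it was the member region with the largest NaBu change.

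The promoter of COL26A1 was not called with either compound. The region over its start, chr7:101362636-101364571, had ranks of 98.0, 97.2 and 97.6 in untreated libraries and 98.1, 98.1 and 97.5 with NaPr, which overlap. In the NaBu experiment it had 94.4, 90.2 and 93.1 untreated and 91.0, 93.0 and 94.2 treated (change 0.14, SE 1.22, limma adjusted p = 0.935). This promoter was among the strongest peaks of every library.

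Within the gene, 2 nearby regions took different courses. In the intron region chr7:101422244-101422790, at 59.7 kb, untreated ranks were 72.0, 61.3 and 47.0 and no NaPr library had a peak. The NaBu experiment showed 36.6, 3.60 and 28.3 untreated and no peak with NaBu, a change of −22.8 points that missed the threshold (SE 8.10, limma adjusted p = 0.0562). At 57.7 kb, the region chr7:101419370-101421204, which covers a coding exon, had ranks of 24.8, 10.2 and 4.55 without and 72.7, 65.9 and 68.4 with NaBu (change 55.8, SE 6.62, limma adjusted p = 0.000769). With NaPr the same region was at 79.4, 75.1 and 75.0 against 73.7, 76.1 and 66.7 untreated, and these overlap. It was open in the untreated cultures of the NaPr experiment and weak in those of the NaBu experiment. Downstream, chr7:101598191-101598903 repeated this pattern, with 75.2, 72.9 and 69.0 in the first untreated set, no peak in the second, and 43.3, 53.0 and 43.8 with NaBu (change 46.7, SE 5.59, limma adjusted p = 0.000787). With NaBu it was tested through its treated libraries alone, and the region at 59.7 kb through its untreated libraries alone. Their limma p-values describe values that the filter used. The intron region at 32.8 kb, chr7:101395087-101396049, fell with both compounds, from 84.1 ± 4.68 to 50.5 ± 12.0 with NaPr (SD, n = 3) and from 62.1 ± 6.10 to 35.9 ± 15.0 with NaBu (change −26.1, SE 7.78, limma adjusted p = 0.0299).

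AHNAK2 encodes a very large scaffold-like protein with a PDZ domain. Of 38 regions around it (gene at chr14:104937244-104978374, minus strand), 22 were tested with NaPr (2 higher, 0 lower, with 4 lower at an unadjusted p below 0.05 in limma) and 20 with NaBu (3 higher, 5 lower). The region at its start, chr14:104978265-104978577, had ranks of 71.7, 75.4 and 73.8 untreated and 81.6, 78.9 and 74.7 with NaPr, and those groups overlap. In the NaBu experiment its ranks were 26.5, 14.0 and 0 untreated and 56.1, 0 and 0.40 treated, so that the treated libraries scattered over the whole range of the untreated ones (change 5.32, SE 14.7, limma adjusted p = 0.794). Next to the promoter, at −1.97 kb, the region chr14:104979333-104980657 had 77.4, 81.2 and 75.1 untreated and 67.9, 65.5 and 62.0 with NaBu (change −12.8, SE 2.57, limma adjusted p = 0.00597). With NaPr it stood at 69.2, 59.5 and 65.9 against 80.1, 74.8 and 76.3, also without overlap.

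Inside AHNAK2, the intron region chr14:104972264-104973812 at 5.95 kb was among the strongest peaks in every library. NaPr took its ranks from 92.1, 92.5 and 91.3 to 95.5, 96.0 and 96.9. NaBu left them at 96.1, 96.5 and 96.9 against 96.1, 97.4 and 98.6 untreated (change −0.92, SE 0.72, limma adjusted p = 0.332). Far upstream at −46.6 kb, where the nearest coding start is that of CDCA4, chr14:105024655-105025338 rose with NaBu from 47.2, 53.6 and 54.5 to 74.9, 74.9 and 71.9 (change 22.1, SE 3.30, limma adjusted p = 0.00173). NaPr values there were 88.9, 84.4 and 86.8 against 74.5, 80.6 and 76.1. The largest NaBu change at AHNAK2 was a loss, at 69.9 kb (chr14:104908404-104909085), from 53.6, 51.3 and 50.7 to 9.91, 0 and 28.4 (change −39.1, SE 7.85, limma adjusted p = 0.00592). It missed the threshold when regions without a peak were tied over the whole set (limma adjusted p = 0.0914). NaPr ranks there were 34.9, 0 and 0 against 43.5, 53.1 and 31.3. The region with the largest NaPr gain, chr14:104924857-104925395, overlaps the UTR of PLD4. It had 49.8, 37.9 and 8.92 with NaPr, 9.52, 1.38 and 0 untreated, and no peak in the NaBu experiment. The largest NaPr loss, chr14:105021708-105022111 at −43.4 kb, went from 63.5, 52.1 and 36.6 to 0, 15.6 and 0. With NaBu that region changed by −23.4 points (SE 7.93, limma adjusted p = 0.0481), a call lost in 10 of 18 alternatives, 5 of which left out 1 library (each library except treated replicate 3).

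**Figure D3:**
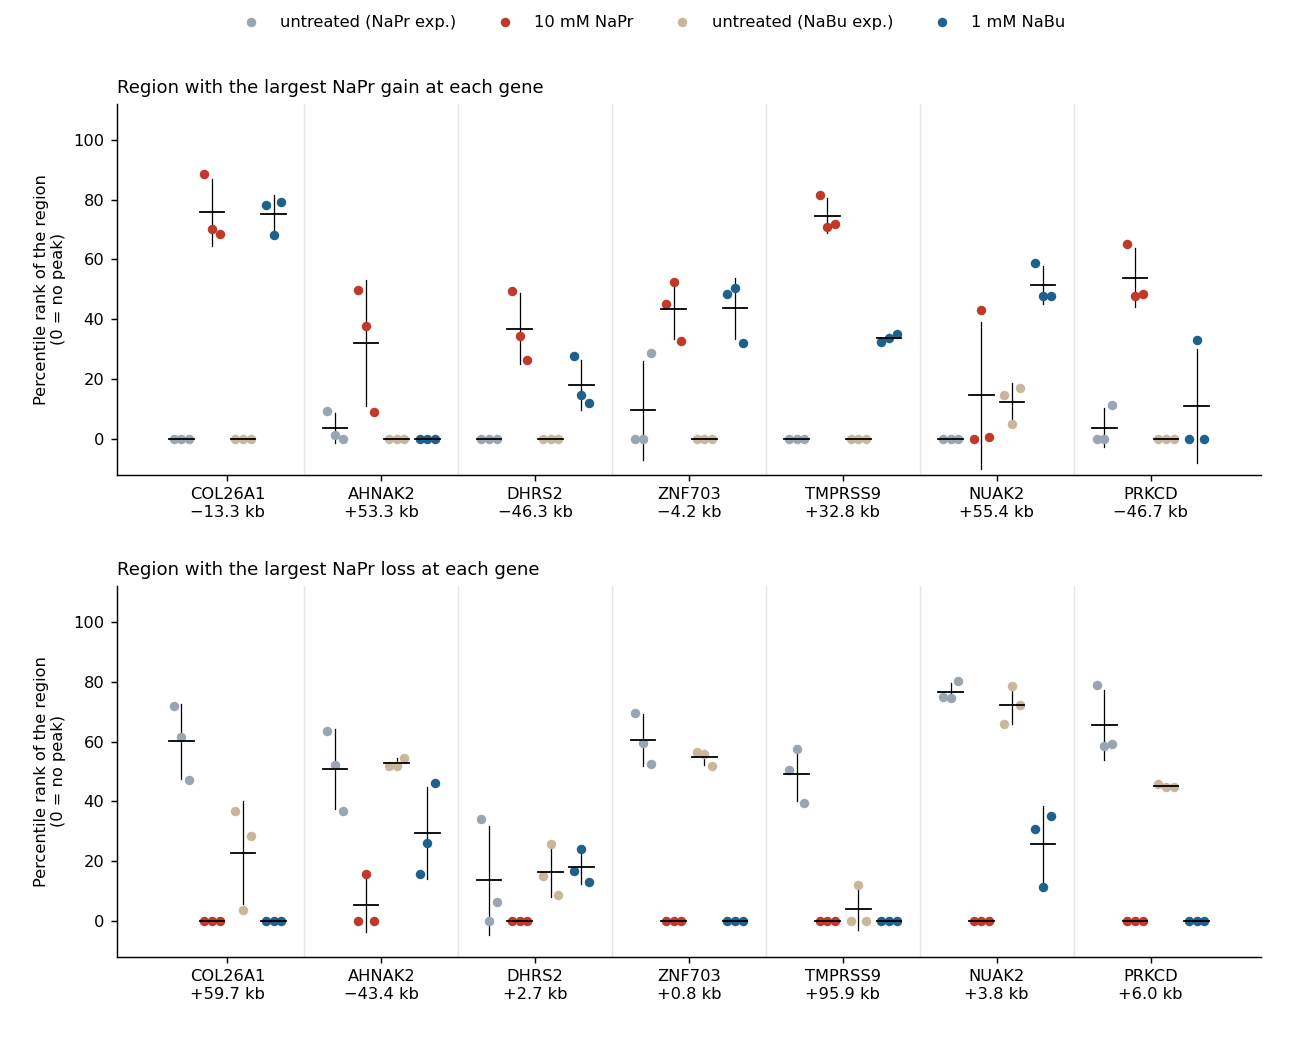
Percentile rank (vertical axis, 0 where no peak was listed) of the region with the largest NaPr gain (top) and the largest NaPr loss (bottom) at each gene, with the distance of the region from the gene's start under its name. Points are the 3 libraries of each group, horizontal bars the mean and vertical lines 1 SD. COL26A1, DHRS2 and TMPRSS9 have no untreated peak in the top panel, and no NaPr library has a peak at COL26A1, DHRS2, ZNF703, TMPRSS9, NUAK2 and PRKCD in the bottom panel.

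DHRS2 encodes an enzyme of the short-chain dehydrogenase/reductase family. Around the gene (chr14:23630115-23645639, plus strand) there were 15 regions, the fewest of the 7 genes, and none lay within 1 kb of its start. With NaPr, 9 were tested in limma and 0 passed the adjusted threshold, while 4 were higher and 0 lower at an unadjusted p below 0.05. In 6 of the 9 the treated libraries lay above all untreated ones, and in 0 below them, where 14.6% and 11.6% of all tested regions did so, a description of values that chose the gene. Of these 6, 4 had a peak in all NaPr libraries and in no untreated library of that experiment. They passed the filter through NaPr alone and could only lie above. With NaBu, 2 of 10 tested regions were called higher and 2 lower.

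The DHRS2 region that shares this sequence, chr14:23581256-23583883 at −46.3 kb, had no peak in either untreated set. Its nearest coding start is that of JPH4. NaPr gave it ranks of 49.6, 34.6 and 26.2, from 14, 13 and 20 tags at the summit. With NaBu it had ranks of 27.6, 14.8 and 11.9, from 29, 26 and 27 tags (change 18.1, SE 5.28, limma adjusted p = 0.0277). The call was lost when any 1 untreated library was left out (limma adjusted p from 0.0713 to 0.0723). The change of 18.1 could not move in these fits, since all untreated ranks were 0. With NaBu this region was tested through its treated libraries alone, so its limma p-values describe values that the filter used. In an intron region of the gene, chr14:23631597-23632597 at 1.95 kb, NaBu libraries had 81.4, 86.8 and 85.1 against 65.4, 67.9 and 77.4 untreated (change 14.2, SE 3.11, limma adjusted p = 0.00855). NaPr libraries had 74.9, 75.1 and 69.2 there against 59.4, 61.8 and 67.0.

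Several other DHRS2 regions had peaks in 1 experiment only. A coding region at 9.66 kb, chr14:23638828-23640021, had NaPr ranks of 32.0, 13.4 and 25.4 and no peak in the 9 other libraries. The same held at 6.09 kb over the UTR (28.9, 1.43 and 2.58) and at 35.7 kb beyond the gene (4.57, 21.6 and 23.8). Just past the 3′ end, chr14:23645766-23647672 had 66.5, 55.1 and 56.8 with NaPr against 30.1, 5.62 and 44.1 untreated. NaBu gave 12.9, 7.02 and 26.6, from no untreated peak, which missed the threshold (change 15.5, SE 5.64, limma adjusted p = 0.0615). This region was also tested with NaBu through its treated libraries alone. The 2 NaBu losses, at −16.4 and 64.7 kb, lay in regions with no peak in the NaPr experiment. The larger, chr14:23694227-23694904, fell from 58.0, 63.8 and 63.3 to 31.8, 0 and 0 (change −51.1, SE 9.09, limma adjusted p = 0.00354). The region with the largest NaPr loss, chr14:23632669-23633572, was weak in every library, with 34.2, 0 and 6.42 untreated and no NaPr peak, and 16.8, 24.1 and 13.2 with NaBu against 15.0, 25.8 and 8.72 (change 1.51, SE 6.30, limma adjusted p = 0.866).

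ZNF703 encodes a zinc finger protein that represses transcription. Its 24 regions (gene at chr8:37695782-37700019, plus strand) included 8 tested with each compound, with 0 higher and 1 lower after NaPr (1 higher at an unadjusted p below 0.05 in limma) and 1 higher and 1 lower after NaBu. The region over the start, chr8:37694414-37696267, had NaPr ranks of 91.8, 90.5 and 88.8 against 90.0, 91.4 and 90.7, which overlap. NaBu ranks were 90.3, 89.4 and 89.9 against 84.8, 85.2 and 89.1, without overlap, and the change of 3.53 points missed the threshold (SE 1.24, limma adjusted p = 0.0547). On recovered tags the change was −0.23 on the log2 scale (limma adjusted p = 0.0329), in the other direction. The next region, chr8:37696555-37697195 over coding sequence at 0.83 kb, lost its peak with both compounds. It had 69.7, 59.6 and 52.3 before and no peak after NaPr, and 56.4, 55.9 and 51.7 before and no peak after NaBu (change −54.7, SE 5.38, limma adjusted p = 0.000437). With the 50000 strongest intervals of each library alone, the NaBu change was −5.06 (limma adjusted p = 0.311). Upstream at −4.22 kb, chr8:37691329-37691687 went the other way, from no untreated peak to 48.5, 50.5 and 32.0 with NaBu (change 43.7, SE 6.50, limma adjusted p = 0.00172). By fold enrichment that call was lost (limma adjusted p = 0.0508). NaPr ranks there were 45.0, 52.4 and 32.7 against 0, 0 and 28.6. With NaBu, the region at 0.83 kb was tested through its untreated libraries alone and that at −4.22 kb through its treated libraries alone. Their limma p-values therefore describe values that the filter used.

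TMPRSS9 encodes a transmembrane serine protease with several protease domains. The window (gene at chr19:2360238-2426261, plus strand) held 47 regions, with 1 of 27 higher and 2 lower after NaPr and 3 of 27 higher and 6 lower after NaBu. The intron region chr19:2392707-2393422 at 32.8 kb, which shares sequence with the COL26A1 and DHRS2 regions, had no peak in any untreated library. With NaPr it ranked at 81.6, 70.7 and 71.8, from 51, 48 and 87 tags. With NaBu it ranked at 32.3, 33.8 and 35.0, from 26, 31 and 31 tags (change 33.7, SE 4.78, limma adjusted p = 0.00145), and the call held in all 16 alternatives that gave a value. This region too was tested through its treated libraries alone, so its limma p-value describes values that the filter used. All 6 treated libraries lay above all untreated ones, and the NaPr ranks exceeded the NaBu ranks, which come from another dose and experiment.

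At other TMPRSS9 regions the untreated cultures of the 2 experiments differed. At 15.2 kb, the intron region chr19:2375306-2375801 had 51.0, 61.4 and 55.0 in the first untreated set and 79.5, 71.4 and 67.9 with NaPr. The second untreated set had no peak there, and NaBu gave 18.8, 17.7 and 33.7 (change 23.4, SE 5.60, limma adjusted p = 0.0125). A region over a coding exon at 35.8 kb, chr19:2395528-2396599, stood at 94.8, 94.1 and 95.2 without and 85.9, 89.5 and 89.0 with NaPr. In the NaBu experiment it had 16.0, 30.4 and 0.93 without and 43.5, 11.7 and 21.0 with NaBu (change 9.64, SE 10.1, limma adjusted p = 0.47). The largest NaBu loss, over an exon of SPPL2B at −20.7 kb (chr19:2339243-2339681), went from 39.4, 48.9 and 51.3 to no peak (change −46.5, SE 5.73, limma adjusted p = 0.000867), and the NaPr experiment had no peak there. The largest NaPr loss, in an intron of LMNB2 (chr19:2456048-2456422), went from 50.3, 57.5 and 39.5 to no peak. A peak at 12.1 was listed there in 1 untreated library of the NaBu experiment. With NaBu, the region at 15.2 kb was tested through its treated libraries alone and that at −20.7 kb through its untreated libraries alone. Their limma p-values describe values that the filter used. The start of TMPRSS9 itself (chr19:2359611-2360295) was weak, with a peak in 5 of the 12 libraries and ranks up to 39.3 (NaBu change −5.65, SE 6.40, limma adjusted p = 0.503).

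NUAK2 encodes a serine/threonine kinase of the AMPK-related family. Among 43 regions (gene at chr1:205302063-205321745, minus strand), 32 were tested with NaPr (0 higher, 5 lower, with 1 higher at an unadjusted p below 0.05 in limma) and 28 with NaBu (4 higher, 7 lower). The 5 lower calls with NaPr became 0 to 2 when 1 library was left out, and 0 by fold enrichment. The intron region chr1:205317364-205318030 at 3.77 kb had 75.0, 74.6 and 80.1 untreated and no peak in any NaPr library. In the NaBu experiment it had 65.7, 78.5 and 72.2 untreated and 30.7, 11.3 and 35.0 treated (change −46.4, SE 7.12, limma adjusted p = 0.00193), with 166, 152 and 149 tags untreated and 55, 47 and 60 treated. The region was therefore lower in all treated libraries, and absent from the lists of 3 of them. That call held in all 18 alternatives.

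The start of NUAK2, chr1:205321252-205322077, kept a peak in every library. Its ranks were 90.6, 87.4 and 88.2 untreated and 88.2, 90.2 and 88.3 with NaPr. NaBu libraries stood at 84.2, 85.5 and 87.6 against 76.7, 76.2 and 80.4 untreated (change 8.01, SE 1.61, limma adjusted p = 0.00602). On recovered tags, however, this NaBu change was 0.03 on the log2 scale (limma adjusted p = 0.831). Of the 5 regions called lower with NaPr, 4 were also called lower with NaBu. Besides the intron region, these were at 20.2 kb (NaBu change −39.0, SE 4.97), at 37.8 kb in an exon of TMCC2 (−38.1, SE 5.90) and at −22.6 kb over the UTR of KLHDC8A (−31.1, SE 5.75), with limma adjusted p-values of 0.000969, 0.00199 and 0.00417. The fifth, in an intron of TMCC2 at 59.4 kb, had 51.0, 55.7 and 46.1 untreated, no NaPr peak and no peak in the NaBu experiment. The largest NaPr gain of a NUAK2 region, at 55.4 kb in another TMCC2 intron, rested on 1 library, with ranks of 0, 42.9 and 0.64 against no untreated peak. With NaBu that region rose from 14.7, 5.10 and 17.0 to 58.8, 47.7 and 47.8 (change 39.2, SE 6.40, limma adjusted p = 0.0025).

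PRKCD encodes protein kinase C delta, a kinase activated by diacylglycerol. It had 35 regions (gene at chr3:53156009-53192717, plus strand), with 3 of 23 higher and 3 lower after NaPr, and 7 of 21 higher and 7 lower after NaBu. The intron region chr3:53161928-53162134 at 5.98 kb, 402 bp from the start of a coding transcript, had 78.9, 58.6 and 59.0 untreated and no peak with NaPr. It had 45.9, 44.7 and 44.6 untreated and no peak with NaBu (change −45.1, SE 5.12, limma adjusted p = 0.000668), and the call held in all 16 alternatives that gave a value. It was tested with NaBu through its untreated libraries alone, so its limma p-value describes values that the filter used. On the gene's 5′ side it adjoins a stronger region over a UTR, chr3:53160578-53161826, which kept a peak in every library, at 89.5, 91.1 and 90.4 without and 82.4, 85.8 and 82.4 with NaPr, and at 79.7, 82.0 and 80.5 without and 81.1, 68.2 and 73.4 with NaBu (change −6.51, SE 3.00, limma adjusted p = 0.121). The 2 regions on its 3′ side also fell with NaBu, at 6.52 kb (change −27.6, SE 6.37, limma adjusted p = 0.0108) and at 7.02 kb (change −27.7, SE 8.31, limma adjusted p = 0.0309). Beside strong peaks a low rank need not mean few tags, since a peak is scored over its local background. In the region at 7.02 kb, the NaBu library of replicate 1 had a rank of 0.10 with 53 tags at the summit.

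The 200 bases around the summit of the NUAK2 and PRKCD intron regions that lost rank with both compounds are shown because these regions shared no such runs with other tested regions, on the plus strand of GRCh38, at chr1:205317876-205318075 and chr3:53161886-53162085. Neither window held an AP-1 motif (TGACTCA or TGAGTCA, either strand, found in the 200 bases around the summit of 15.3% of all tested regions), so no letters are in capitals.
NUAK2: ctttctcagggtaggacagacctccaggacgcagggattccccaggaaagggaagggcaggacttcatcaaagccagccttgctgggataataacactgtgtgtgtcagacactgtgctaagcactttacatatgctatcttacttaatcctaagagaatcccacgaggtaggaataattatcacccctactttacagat
PRKCD: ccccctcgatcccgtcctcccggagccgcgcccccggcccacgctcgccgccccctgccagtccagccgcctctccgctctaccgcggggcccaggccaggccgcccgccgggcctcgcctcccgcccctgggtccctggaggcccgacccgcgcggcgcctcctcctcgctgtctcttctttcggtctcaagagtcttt
The NUAK2 window had a GC content of 46.5% and the PRKCD window one of 77%.

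Elsewhere in an intron of PRKCD, at 3.60 kb, chr3:53159111-53160197 rose with both compounds. It had 54.9, 58.4 and 51.7 without and 84.6, 75.3 and 69.1 with NaPr, and 70.0, 68.1 and 75.3 without and 82.0, 83.3 and 83.5 with NaBu (change 11.8, SE 2.12, limma adjusted p = 0.00369). The largest NaBu change at PRKCD, in an intron of TKT at 82.4 kb (chr3:53238031-53239075), rose from 22.9, 8.94 and 0 to 56.4, 66.3 and 53.6 (change 48.2, SE 7.47, limma adjusted p = 0.00202). It missed the threshold in 2 alternatives, with 27.7 points when regions without a peak were tied (limma adjusted p = 0.0934) and 7.31 points with the 50000 strongest intervals (limma adjusted p = 0.331). NaPr values there were 75.4, 73.0 and 80.1 against 64.3, 38.5 and 54.8. The region nearest the start, chr3:53154838-53155357 at −0.82 kb, had 80.2, 74.7 and 75.8 without and 53.7, 53.4 and 53.1 with NaPr, and no peak in the 6 libraries of the NaBu experiment.

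**Figure D4:**
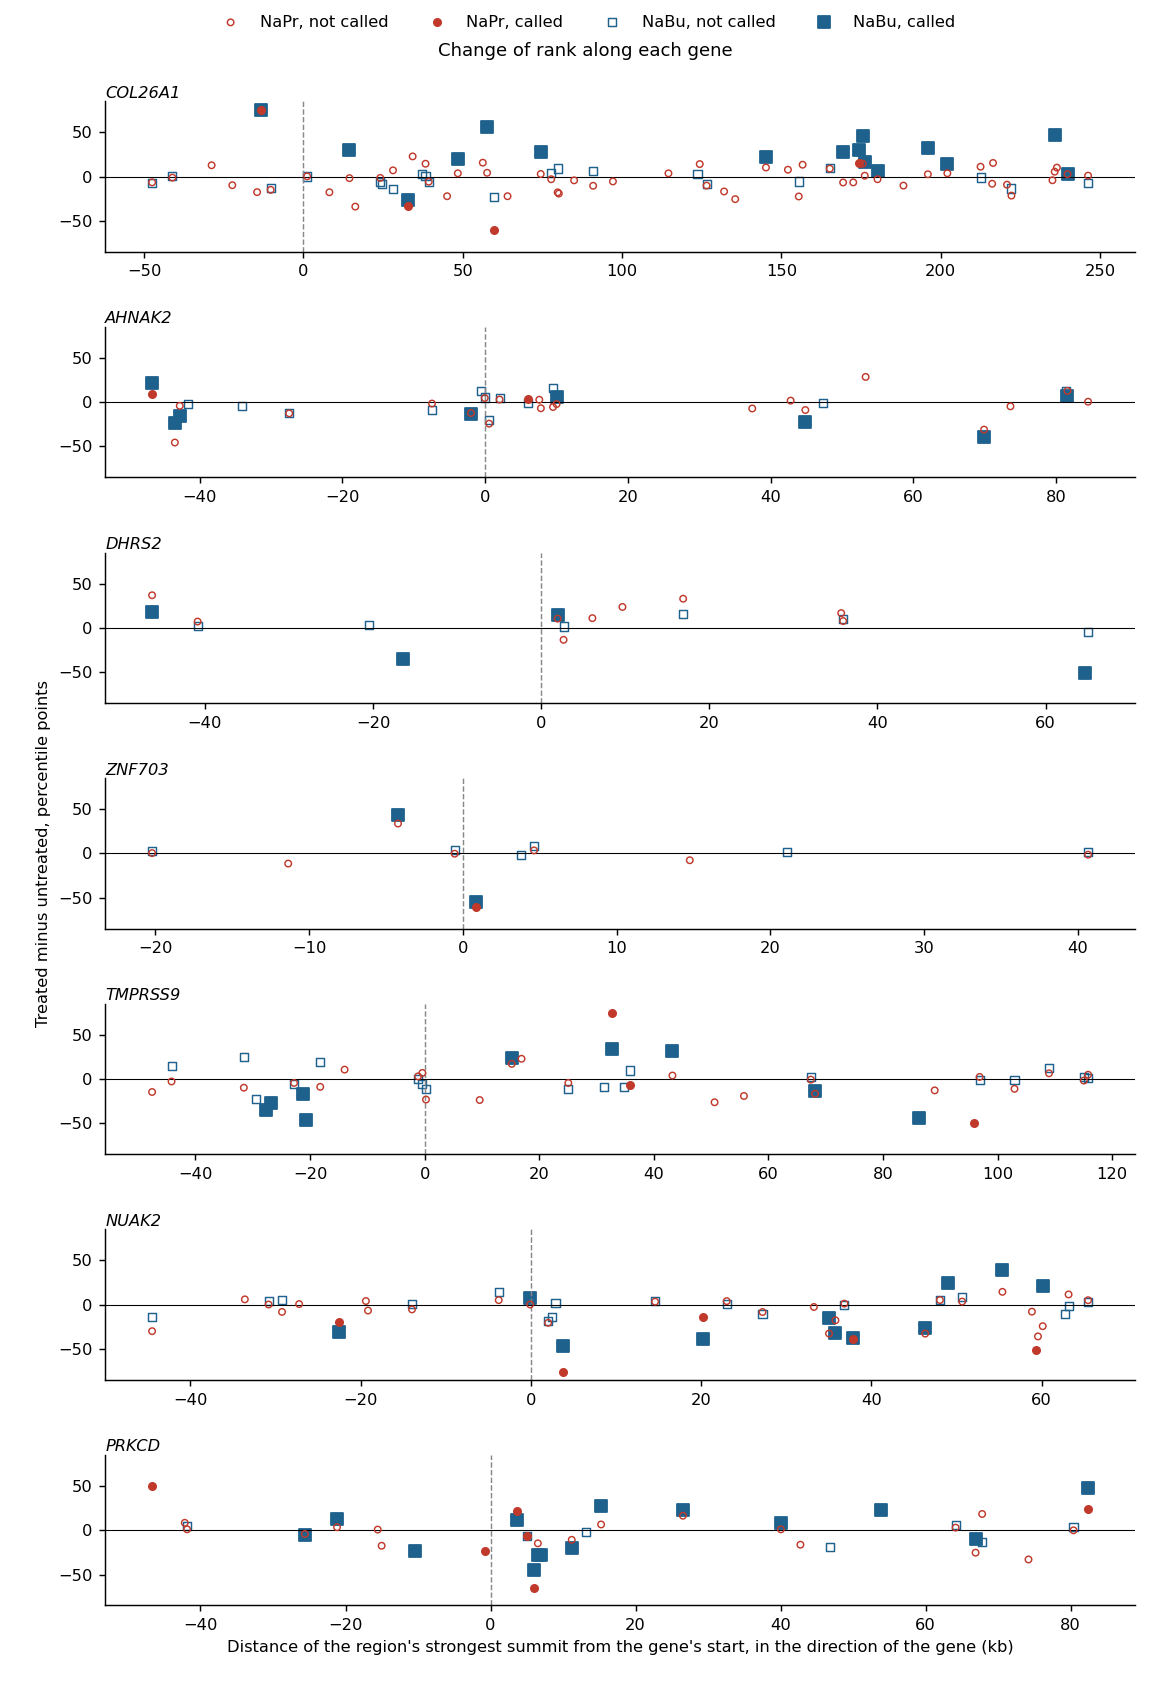
Change of rank (vertical axis, percentile points, treated minus untreated) against distance from the gene's start (horizontal axis, kb, in the direction of the gene) for each of the 7 genes. Red circles are NaPr and blue squares NaBu, filled where called. At COL26A1 15 of the 16 filled squares lie above 0 (4 of 9 calls when ranked by fold enrichment), where 64.7% of all NaBu calls were higher. At NUAK2 the 5 filled circles lie below 0, in values that chose the gene.

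Regions named beyond the start, the largest NaPr gain and loss and the largest NaBu change were chosen after their values had been seen. Positions and motifs were counted over all members. With NaBu, 12 of 29 lower and 4 of 35 higher member regions were within 1 kb of a coding start, against 33.0% and 12.1% over all regions called. With NaPr, 7 of 13 lower and 1 of 8 higher were, against 42.5% and 10.9%. The AP-1 motif occurred in the 200 bases around the summit in 6 of 35 member regions higher with NaBu (17.1%) and 1 of 29 lower (3.45%), against 21.4% and 11.4% over all regions called. With NaPr it occurred in 2 of 8 higher and 0 of 13 lower, against 30.5% and 7.05%.

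Peaks of the untreated cultures were also compared between the 2 experiments, with no test. The untreated libraries of the NaPr experiment took part in the choice of genes, so nothing is read from the members' shares. The lists also ended at unlike strengths. The weakest −log10 p was 3.37 to 5.33 in the untreated libraries of the NaPr experiment and 7.25 to 9.38 in those of the NaBu experiment. In 88 of the 305 regions (28.9%) all 6 untreated libraries had a peak, in 24 (7.87%) only the 3 of the NaPr experiment had one and in 14 (4.59%) only the 3 of the NaBu experiment. Over all 252173 regions these shares were 22.04%, 4.53% and 7.52%. A total of 120 regions were tested in both experiments, 60 in the NaPr experiment alone, 31 in the NaBu experiment alone and 94 in neither.

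One related gene of each family was counted in the same way, namely EMID1, AHNAK, DHRS4, ZNF503, ST14, NUAK1 and PRKCQ. Their windows held 211 regions. With NaBu 22 of 114 tested regions were higher and 13 lower, where 24.0% and 13.1% of all regions were, and the median change was 0.22 points. With NaPr 3 of 117 were higher and 5 lower (3.1% and 2.22% over all regions). Among the relatives AHNAK, the other large scaffold protein, had the most NaBu calls (10 higher and 6 lower of 35). It also had the most tested regions, so nothing is read from that count. ST14, the transmembrane protease matriptase, had 6 higher and 1 lower of 22.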

How the data were processed

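Accessible chromatin was measured by ATAC-seq in 12 SW480 libraries, 3 in each of 4 groups taken from the labels. Mouse CT26 libraries were not analysed here. Per the labels, the submitters' processing notes name bcl2fastq 2.17.1, cutadapt 1.9.1, Bowtie2 2.3.1, MACS2 2.1.0 and hg38, and the authors called peaks in each library separately. For each summit the deposited lists hold a ratio (fold enrichment over the local background), the −log10 p, the −log10 q and an offset. Numbering ended at 300000 in every list. The authors tested reads with DiffBind. Reads were not used here, so ranks of the deposited −log10 p were tested in their place.

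Overlapping intervals (1 bp or more) of the 12 lists were joined to regions and annotated with GENCODE 44. The ranks of a region were tested when 2 or more of the 6 libraries of an experiment had a peak in it. A region with peaks only in treated or only in untreated libraries passed this filter through that group. Its limma p-value then describes values that the filter used. The fit used limma 3.58.1 in R 4.3.3, with a two-sided moderated test and a mean-variance trend, adjusted by Benjamini-Hochberg over all tested regions and called below 0.05. The fit was also run on simulated ranks drawn from regions with a peak in all untreated NaBu libraries. These held no ranks of 0, so the simulation does not cover regions that lack a peak in some libraries. Whole tags were recovered from fold and −log10 p as the outcome of a Poisson test. They gave the depth and 1 alternative, fitted only in regions with a peak in all 6 libraries of an experiment. Replicates shared at most 0.796% of intervals with the same start and end, so no list was a copy of another. Each library counted as 1 sample, although replicates may be technical. Sequences are from the hg38 reference. For each gene the region at its start, those with the largest NaPr gain and loss and that with the largest NaBu change called were named. The genes, lists and tests were chosen with earlier results of these data known. Alternatives changed the ranking value, rank scale, filters, list limits, merging, window, variance model, replicate block and libraries. Values of 1 named region, 1 marker gene and some sequences are not reported here.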

Additional observations from a re-analysis of the deposited data

How the results depend on the processing

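NaBu counts at the 7 genes (35 higher and 29 lower of 151 tested) moved most with the peaks kept (higher) and the window around the gene (lower). Both settings also lowered the number tested. The 50000 strongest intervals of each library gave 15 higher and 16 lower of 73 tested, where 21.3% and 19.5% of all regions were called. They gave 16 in place of 35 calls at the related genes. A window of 5 kb gave 23 higher and 11 lower of 76 tested (24.0% and 13.1% over all regions), and 23 calls at the related genes. Fold enrichment in place of −log10 p gave 22 higher of 151 tested (16.3% over all regions), and recovered tags gave 21 of 88 (24.0%). Leaving out 1 library gave 31 to 34 higher, 21 to 25 lower and 27 to 32 calls at the related genes. NaPr counts (8 higher, 13 lower) were unstable, as were those over all regions (3847 and 2751). Leaving out 1 library gave 0 to 5 higher and 0 to 6 lower at the members, and 0 to 2418 and 0 to 761 over all regions. Without treated replicate 3 both had 0 calls. There, 53 of 175 member regions and 26369 of all 117931 had an unadjusted p below 0.05 in limma. Fold enrichment also gave 0 calls in both (unadjusted 40 of 180 and 20921 of 124067). A peak in at least 1 library gave 2 and 3 at the members (791 and 522 over all regions). For the members, 5 kb gave 4 higher, recovered tags gave 1 lower, and eBayes without trend gave 4 higher. Over all tested regions, 58.3% of NaPr calls were higher on ranks and 92.4% on recovered tags, and among the members 38.1% and 88.9%. The fit on tags held only regions with a peak in all 6 libraries (65178 of 124067), so scale and set of regions changed together. The cause was not tested.

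Whether the replicate numbers pair the libraries is not known, and the reported fit used no block. Same-numbered untreated and treated libraries had deviations that correlated by 0.0049 to 0.0313, which cannot decide it. In every case but 1, each library correlated best with its own number, a hint from the data and not the design. With the replicate number as a block, NaBu counts were 40 higher and 32 lower, NaPr counts 9 and 15, and calls at the related genes 40.

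Changes of sign occurred at 4 regions, all of them not called in the reported NaBu fit. At the start of COL26A1 the change was −9.40 by fold enrichment (limma adjusted p = 0.043), −0.19 with ties, −0.88 with the strongest intervals, −0.054 on log2 tags and −1.03 to 1.07 with 1 library left out (below 0 without untreated replicate 2 or treated replicate 3). The start of AHNAK2 gave −0.27 with ties and −13.3 to 14.7 with 1 library left out (below 0 without treated replicate 1 or untreated replicate 3). The weak DHRS2 intron region gave −14.4 by fold enrichment, −2.45 with ties and −2.39 to 6.15 with 1 library left out (below 0 without treated replicate 2 or untreated replicate 3). The start of ZNF703 gave −0.23 on log2 tags (limma adjusted p = 0.0329). Over the named regions, 294 NaBu values under the alternatives kept direction and side of the threshold, 19 fell short of it, 9 went past it and 14 turned sign. Each group held 3 libraries, and peaks below the limit of a list cut at 300000 summits are not detectable. The shallowest list, untreated replicate 1 of the NaPr experiment (0.936 tags), ended at a −log10 p of 3.37. The deepest, untreated replicate 1 of the NaBu experiment (3.03 tags), ended at 9.38.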
